A study of Homo sapiens with 12 samples.

Results

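The collagen genes examined in U2OS cells were COL1A1, COL1A2, COL3A1, COL4A1, COL4A2, COL5A1, COL5A2, COL6A1, COL6A2 and COL12A1, taken from a fixed list of 10 symbols. All 10 averaged at least 10 in the 6 libraries without drug, the minimum set for a gene to be tested, and they stood among 13811 tested genes of 22379 gene rows. Polyadenylated RNA of U2OS, a human osteosarcoma line, was sequenced in 12 libraries, 2 in each of 6 groups. A plasmid that carries Cas9 and a guide was introduced by transient transfection, followed by puromycin selection. The guide had no target (NONT), or was directed to cut NUP93, which encodes a component of the nuclear pore, or EXOSC5, which encodes a subunit of the RNA-degrading exosome. The cells were pools and not clones, and per the study's methods the NONT pool was selected and expanded for longer than the NUP93-KO and EXOSC5-KO pools, so a difference between a knockout and NONT and a difference in time in culture cannot be told apart. Each genotype was left untreated or received 1 μM triptolide for 8 h. Triptolide blocks the XPB helicase of TFIIH, and with it the start of transcription by RNA polymerase II. Values were scaled on ERCC spike-in RNA added in proportion to the number of cells, so they are meant to follow mRNA per cell, and in bulk RNA fewer cells that express a gene and less RNA in each cannot be told apart.

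Collagens are secreted proteins whose chains wind around each other in a triple helix, which needs a glycine at regular steps along each chain. COL1A1, COL1A2, COL3A1, COL5A1 and COL5A2 encode chains of fibrillar collagens, the cable-like collagens of bone, skin and tendon, with type I the main protein of bone matrix. COL12A1 encodes a collagen that sits on the surface of fibrils, COL4A1 and COL4A2 the chains of the sheet-like network of basement membranes, and COL6A1 and COL6A2 chains of beaded microfilaments around cells. Chains of one molecule are made from separate genes and assembled in the endoplasmic reticulum.

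Approximate depth was 8.60 M to 11.96 M reads per library (M, mega). The total over genes on the spike-in scale was 11.3 M and 16.4 M in the NONT untreated libraries and 4.90 M to 5.94 M after triptolide in NONT, the widest gap within a group and the lowest pair. Of the targeted genes, EXOSC5 had 299 and 481 in NONT untreated and 215.9 and 148 with its own guide. NUP93 had 1753 and 2489 in NONT untreated and 1395 and 1432 with its own guide. The groups did not overlap for either gene, and neither gene was absent. After triptolide EXOSC5 had 266 and 208 with the NONT guide and 75.2 and 101.5 with its own, and NUP93 had 1007 and 899 with the NONT guide and 801 and 1019 with its own, which overlap. Of the osteoblast lineage markers, RUNX2 (218 to 404), ALPL, SPP1 and SPARC passed the filter in untreated cells, SP7 and IBSP were at 0 in all 6 untreated libraries and BGLAP reached 5.68. In the same libraries 5 mesenchymal markers summed to 50221 to 73992, mostly VIM (45686 to 66974), and NT5E among them reached 3.53. The 5 epithelial markers summed to 9697 to 15092, mostly KRT18, and KRT19 among them reached 4.62. The 5 haematopoietic and 4 endothelial markers summed to at most 331 and 78.7.

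The repeat that defines the family was read from the coding sequences of the Ensembl canonical transcripts (GENCODE release 44, GRCh38). The longest run of triplets that start with a glycine codon was 338 triplets in COL1A1, 339 in COL1A2, 343 in COL3A1, 338 in COL5A1 and 339 in COL5A2. It was 87 in both COL6A1 and COL6A2, 66 in COL4A2, 40 in COL4A1 and 32 in COL12A1. The fibrillar genes thus had long unbroken runs, and the network, filament and fibril-surface genes short ones. Exons of 54 bases, which is 6 triplets of 9 bases, numbered 21 of 51 in COL1A1, 24 of 52 in COL1A2, 24 of 51 in COL3A1, 29 of 66 in COL5A1 and 24 of 54 in COL5A2, and 1 to 4 in each of the other genes. Exon 15 of 66 of COL5A1 (chr9:134753850-134753903, plus strand, GRCh38) is shown as an example of such an exon, with the 6 glycine codons (GGN) that start its triplets in capitals and a further glycine codon inside a triplet left in lower case.

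COL5A1 exon 15: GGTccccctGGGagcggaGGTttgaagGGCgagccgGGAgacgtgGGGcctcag

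COL4A1 and COL4A2 lie head to head on chromosome 13, and their RefSeq starts are 127 bases apart (GRCh38.p14). The interval from one start to the other is shown because the results below compare the pair (chr13:110307157-110307284, plus strand, with COL4A1 read to the left and COL4A2 to the right), with a CCAAT and a GGGCGG in capitals.

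COL4A1-COL4A2 interval: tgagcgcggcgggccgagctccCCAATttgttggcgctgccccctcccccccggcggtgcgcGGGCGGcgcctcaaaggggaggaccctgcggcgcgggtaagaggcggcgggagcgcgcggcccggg

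RefSeq promoters, from 250 bases before to 50 after a start, were matched for 5 of the 10 genes (COL4A1, COL4A2, COL5A1, COL6A2 and COL12A1). Searched on both strands, with overlapping matches allowed, GGGCGG was in 5 of the 5, against 44.95% of 35116 promoters. CCAAT was in 2 of the 5 (COL4A1 and COL4A2) against 34.6%, and TATAAA in 1 of the 5 (COL6A2) against 11.5%. The COL4A1 and COL4A2 windows overlap and share the CCAAT and the GGGCGG of the interval, so they are not independent. The 5 windows were 63.3% to 79.3% GC, which was not compared with the other promoters. Transcripts of the 10 genes had a median length of 6180 bases and 51.5 exons, against 3448 bases and 9 exons over 12995 tested genes with an annotation. The pentamer ATTTA, part of the AU-rich elements known from short-lived mRNAs, was in the 3′ UTR of 8 of the 10 genes (not in COL6A1 or COL6A2), against 73.9% of the tested genes.

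In untreated cells the genes spanned several orders of magnitude. Per kb of transcript, on the spike-in scale, COL1A1 had the highest level (median 5950.25 over 6 untreated libraries, 3987 to 9738), followed by COL4A2 (2227, 1501 to 2578), COL4A1 (955, 763 to 1408), COL6A2 (562, 413 to 663), COL6A1 (462, 314 to 516), COL5A1 (283, 244 to 450.1), COL12A1 (223, 141 to 335), COL5A2 (70.3, 41.1 to 87.7), COL1A2 (3.99, 2.00 to 8.29) and COL3A1 (1.81, 0 to 5.52). The ranges of COL6A2 and COL6A1, COL6A1 and COL5A1, COL5A1 and COL12A1, and COL1A2 and COL3A1 overlapped. Within each library COL6A1 was above COL5A1 and COL5A1 above COL12A1 in 6 of 6, COL6A2 was above COL6A1 in 5 of 6, and COL1A2 was above COL3A1 in 3 of 6. The order was the same with the longest coding transcript as the length. The 2 chains of type I collagen thus stood at opposite ends: COL1A1 exceeded COL1A2 per kb by a median of 1829-fold, from 636-fold to 3334-fold across untreated libraries.

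**Figure D1:**
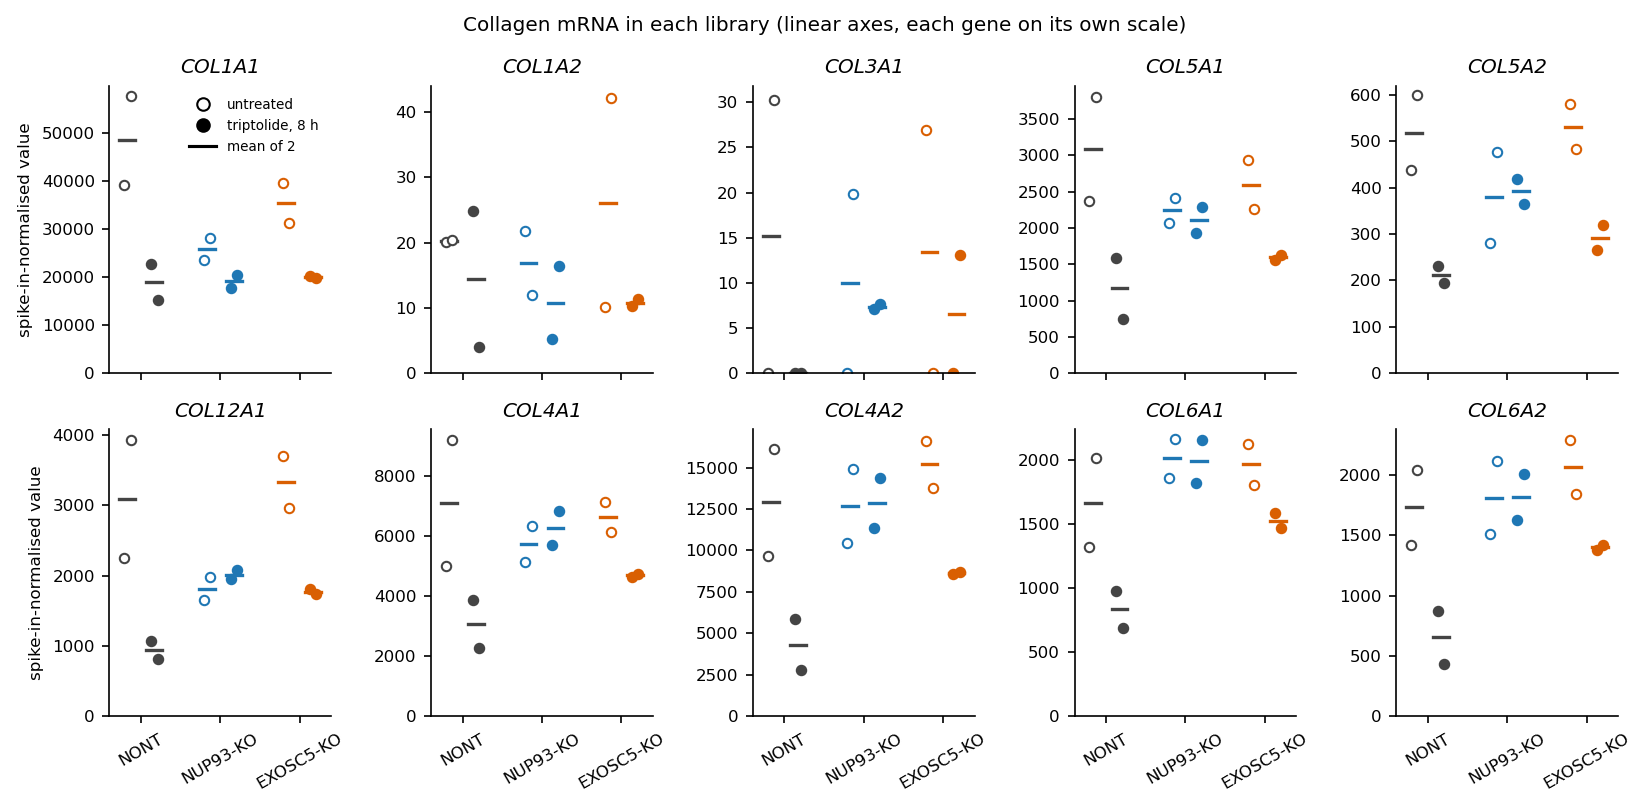
Spike-in-normalised value (y, linear, starting at 0) of each collagen gene in the 12 libraries by genotype (x), open circles untreated, filled circles after 8 h of triptolide, bars the mean of 2. COL1A1 reached 57588 while COL1A2 stayed at or below 42.0 and COL3A1 at or below 30.3. For the more abundant genes the filled circles lie below the open ones in NONT and EXOSC5-KO. In NUP93-KO they overlap, except for COL1A1. The share of all genes with groups apart was not counted. Of all genes tested, 98.9% in NONT, 96.6% in EXOSC5-KO and 92.3% in NUP93-KO had a log2 difference below 0.

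Together the 10 genes made up 0.388% to 0.627% of all gene values per library. COL1A1 (ENSG00000108821, chromosome 17, 50184101 to 50201632, minus strand) was the largest part of that sum, though its share differed by genotype. It held 63.5% and 60.4% of the collagen sum in NONT untreated and 61.0% and 65.7% in NONT triptolide, 52.7% and 51.5% in EXOSC5-KO without drug and 50.3% and 49.7% in EXOSC5-KO triptolide, and 50.6% and 48.0% in NUP93-KO untreated and 41.6% and 40.4% in NUP93-KO triptolide. The 4 NONT libraries lay above the other 8. These shares are ratios within a library, which the spike-in scale does not move. COL4A2 was the second part, with 15.7% to 25.5% in untreated cells.

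**Figure D2:**
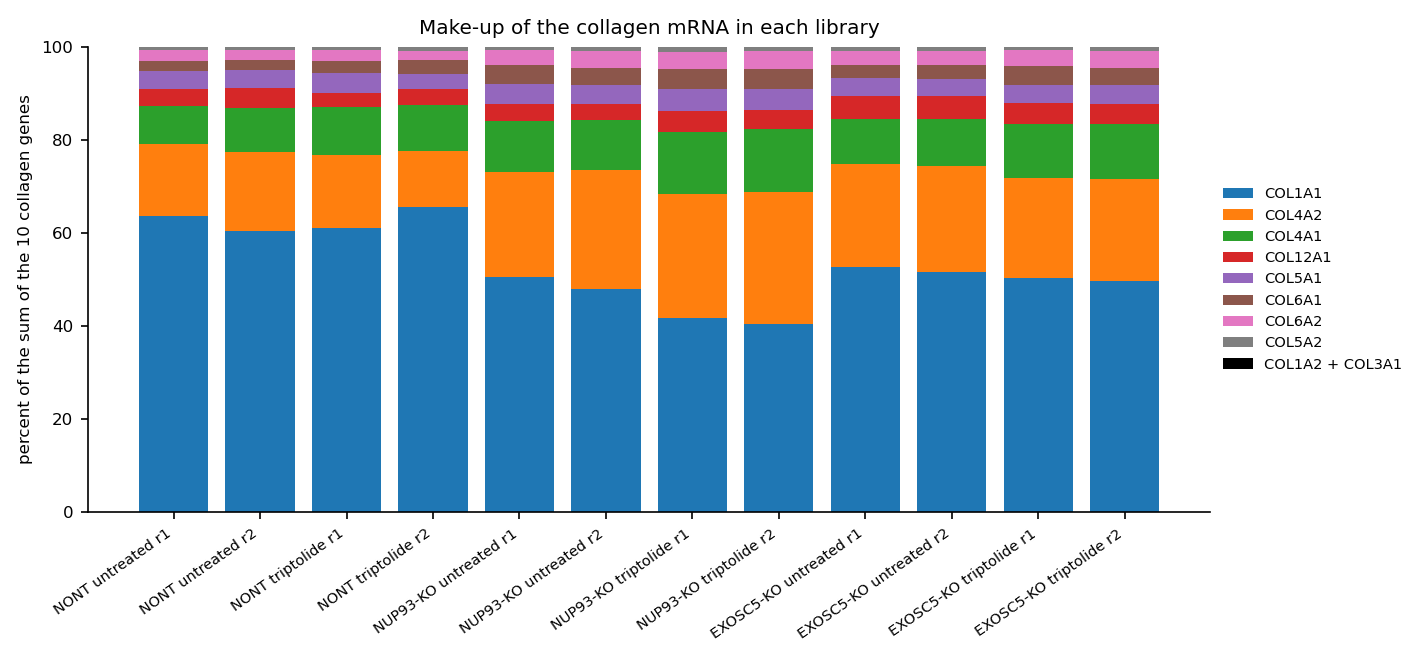
Percent of the sum of the 10 collagen genes (y, 0 to 100) held by each gene in each library (x), from values that are not divided by length. COL1A1 holds 60.4% to 65.7% in the NONT libraries and 40.4% to 52.7% in the knockout libraries, and COL1A2 and COL3A1 together are too small to see.

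The response to triptolide was tested with limma on log2(value + 1), with Benjamini-Hochberg adjustment over all 13811 genes and a threshold of 0.05. The fold changes are on that log2 scale, which understates the change of low genes, and p-values measure the spread between 2 libraries per group, which may be technical because nothing states that replicates were separate transfections. On the spike-in scale 8 of 10 collagen genes fell in NONT, where 90.0% of all genes tested were called lower. In EXOSC5-KO 5 of 10 fell, against 64.3% of genes. In NUP93-KO 0 of 10 fell, against 55.1% of genes, with 0 of 10 also at an unadjusted p under 0.05 (59.2% of genes). The median log2 difference of the 10 was −1.41 in NONT, −0.75 in EXOSC5-KO and 0.02 in NUP93-KO, beside medians over all genes of −1.62, −1.08 and −0.92. Without COL3A1, which was at 0 in both NONT triptolide libraries, the medians were −1.35, −0.81 and 0.02. Directions in this and the next paragraphs are those of the spike-in scale. Treated and untreated libraries were apart for 8 of 10 genes in NONT, 8 in EXOSC5-KO and 1 in NUP93-KO. The share of all genes with groups apart was not counted, so separations given gene by gene below are descriptions. Of all genes tested, 98.9% in NONT, 96.6% in EXOSC5-KO and 92.3% in NUP93-KO had a log2 difference below 0. Rescaling libraries by the median of ratios, which moves the median difference of all genes to −0.01, −0.01 and −0.03, gave 0 lower and 3 higher in NONT (27.2% of genes higher), 0 lower and 4 higher in EXOSC5-KO (26.2%) and 0 lower and 8 higher in NUP93-KO (26.7%).

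**Figure D3:**
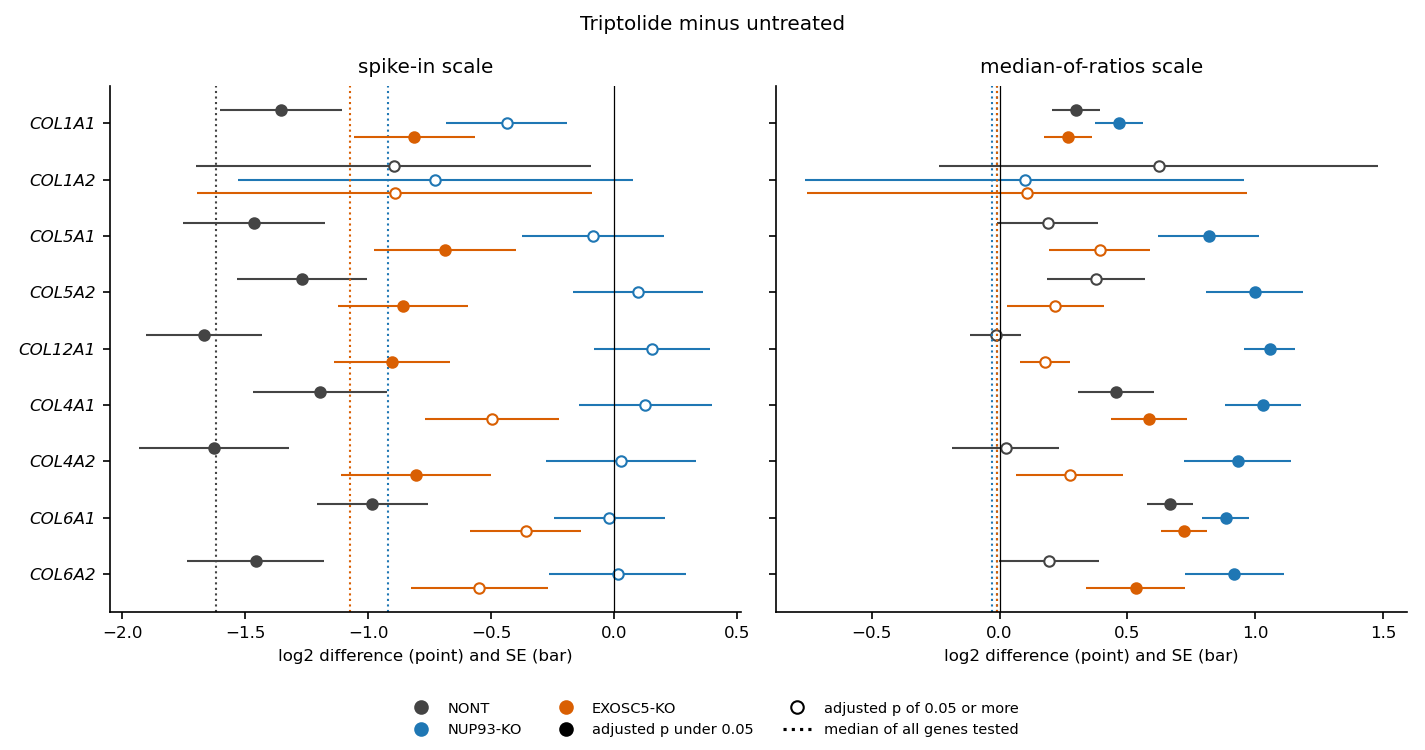
Log2 difference between triptolide and untreated libraries (x) with its SE for 9 collagen genes (y) in each genotype, on the spike-in scale (left) and the median-of-ratios scale (right), filled where the adjusted p is under 0.05. COL3A1 is left out because both NONT triptolide libraries are at 0. Dotted lines mark the median of all genes, −1.62, −1.08 and −0.92 on the left and close to 0 on the right, and the NUP93-KO points of the 8 abundant genes lie to the right of their line on both scales.

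Among the fibrillar genes, COL1A1 had 39198 and 57588 in NONT untreated and 22724 and 15197 in NONT triptolide. In EXOSC5-KO it had 39514 and 31181 untreated and 20131 and 19848 treated, and it had 23577 and 28122 in NUP93-KO untreated and 17701 and 20459 in NUP93-KO triptolide. Treated libraries lay below untreated ones in all 3 genotypes without overlap. The 6 treated libraries spanned 15197 to 22724, and the 6 untreated ones 23577 to 57588. The log2 difference was −1.35 ± 0.25 (SE, adjusted p = 9.5e-05) in NONT, −0.81 ± 0.25 (adjusted p = 0.00887) in EXOSC5-KO and −0.44 ± 0.25 (adjusted p = 0.147, 95% interval −0.96 to 0.09) in NUP93-KO. Leaving out the first untreated EXOSC5-KO library, the higher of the pair, took the EXOSC5-KO value to −0.64 (adjusted p = 0.111).

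Type V collagen joins type I fibrils as a minor part and limits their width. COL5A1 (ENSG00000130635, chromosome 9, 134641803 to 134844843, plus strand) had 2368 and 3799 in NONT untreated and 1588 and 744 in NONT triptolide, and in EXOSC5-KO 2928 and 2263 without drug and 1563 and 1630.45 with it. In NUP93-KO it had 2063 and 2417 untreated and 1933 and 2291 treated, which overlap. COL5A1 fell in NONT (−1.46 ± 0.29, adjusted p = 0.000199) and narrowly passed in EXOSC5-KO (−0.69 ± 0.29, adjusted p = 0.0464). It did not pass there without the first untreated EXOSC5-KO library (−0.50, adjusted p = 0.239 by limma), without the first or second treated one (−0.66, 0.130, and −0.72, 0.0992) or with the replicate number as a block (−0.69, 0.0507). COL5A2 (ENSG00000204262, chromosome 2, 189031898 to 189225312, minus strand) had 437 and 599 in NONT untreated and 230.1 and 195 in NONT triptolide. It had 580.4 and 482 against 265 and 320.0 in EXOSC5-KO, and 281 and 477 against 419.7 and 366 in NUP93-KO. The NUP93-KO treated libraries lay between its untreated ones, while in NONT and EXOSC5-KO the groups were apart. COL5A2 fell by 1.27 ± 0.26 in NONT (adjusted p = 0.000319) and by 0.86 ± 0.26 in EXOSC5-KO (adjusted p = 0.00965). Neither type V gene passed in NUP93-KO, where the 95% intervals were −0.70 to 0.53 for COL5A1 and −0.46 to 0.66 for COL5A2.

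COL1A2, the partner of COL1A1, and COL3A1, the chain of type III collagen found with type I in soft tissue, were near the limit of detection. COL1A2 (ENSG00000164692, chromosome 7, 94394895 to 94431227, plus strand) had 20.1 and 20.3 in NONT untreated, 24.7 and 4.05 in NONT triptolide, 21.8 and 11.9 in NUP93-KO untreated, and 5.17 and 16.4 in NUP93-KO triptolide, and in EXOSC5-KO it had 10.2 and 42.0 without drug and 10.3 and 11.3 with it. These values stand for about 5.90 to 41.1 reads, and treated and untreated libraries overlapped in every genotype. COL3A1 (ENSG00000168542, chromosome 2, 188974373 to 189012746, plus strand) was listed at 0 in 6 of 12 libraries, namely both of NONT triptolide and 1 of each other group except NUP93-KO triptolide. Where it was above 0 it had 30.3 in NONT untreated, 19.9 in NUP93-KO untreated, 7.09 and 7.64 in NUP93-KO triptolide, and in EXOSC5-KO 26.9 without drug and 13.1 with it, at most about 18.6 reads. A count of 0 allows up to 3 reads, or a value of 1.47 to 5.27 depending on the library, for counting error alone. Within replicate pairs COL3A1 was listed at 0 in one library and at about 17.2, 15.9, 18.6 and 15.9 reads in the other (NONT, NUP93-KO and EXOSC5-KO without drug and EXOSC5-KO with it), a spread beyond that limit, so its values are uncertain. How reads were assigned to it was not tested. Neither gene passed in any genotype, and a change was not detectable with this spread and depth: the 95% interval of COL1A2 in NONT was −2.59 to 0.80. Single libraries decided this in NONT, where COL1A2 passed without the first treated library (−2.07, adjusted p = 0.0372 by limma) and COL3A1 without the first untreated one (adjusted p = 0.0463 by limma). COL3A1 passed the minimum of 10 through 3 of the 6 untreated libraries.

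COL12A1 (ENSG00000111799, chromosome 6, 75084326 to 75206267, minus strand) is the longest of the transcripts. It had 2257 and 3929 in NONT untreated and 1079 and 814 in NONT triptolide. In EXOSC5-KO it had 3709.7 and 2963 untreated and 1809 and 1739 treated, and in NUP93-KO 1659 and 1979 untreated and 1948 and 2087 treated. The groups were apart in NONT and EXOSC5-KO and overlapped in NUP93-KO, where the untreated libraries were already below those of NONT. COL12A1 fell by 1.67 ± 0.24 in NONT (adjusted p = 7.2e-06) and by 0.90 ± 0.24 in EXOSC5-KO (adjusted p = 0.00328), and its difference in NUP93-KO was 0.15 ± 0.24 (adjusted p = 0.608, 95% interval −0.35 to 0.65).

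The basement membrane chains went the same way in NONT. COL4A1 (ENSG00000187498, chromosome 13, 110148963 to 110307157, minus strand) had 4990.1 and 9210 in NONT untreated and 3858 and 2265 in NONT triptolide, 7148 and 6144 against 4642 and 4754 in EXOSC5-KO, and 5154 and 6353 against 5716 and 6839 in NUP93-KO. COL4A2 (ENSG00000134871, chromosome 13, 110305812 to 110513209, plus strand) had 9677 and 16141 in NONT untreated and 5866 and 2789 in NONT triptolide, 16616 and 13788 against 8602 and 8707 in EXOSC5-KO, and 10471 and 14928.5 against 11329 and 14355 in NUP93-KO. For both genes treated libraries were below untreated ones in NONT and EXOSC5-KO and overlapped them in NUP93-KO. COL4A1 fell by 1.20 ± 0.27 in NONT (adjusted p = 0.000657) and did not pass in EXOSC5-KO (−0.50 ± 0.27, adjusted p = 0.116), while COL4A2 fell by 1.63 ± 0.31 in NONT (adjusted p = 0.000125) and by 0.81 ± 0.31 in EXOSC5-KO (adjusted p = 0.0294). In NUP93-KO the 95% intervals were −0.45 to 0.70 for COL4A1 and −0.62 to 0.67 for COL4A2. The annotated spans of both genes overlap on opposite strands. The library kit kept strand, and per the study's methods the read assignment used it.

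The type VI chains COL6A1 (ENSG00000142156, chromosome 21, 45981770 to 46005050, plus strand) and COL6A2 (ENSG00000142173, chromosome 21, 46098112 to 46132848, plus strand) are neighbours on the same strand. COL6A1 had 1320.0 and 2016 in NONT untreated and 979 and 695 in NONT triptolide, 2129 and 1807.5 against 1588 and 1473 in EXOSC5-KO, and 1865 and 2169.85 against 1823 and 2162 in NUP93-KO. COL6A2 had 1421 and 2036 in NONT untreated and 876 and 437 in NONT triptolide, 2283 and 1836 against 1380.1 and 1421 in EXOSC5-KO, and 1508 and 2113 against 1621 and 2008 in NUP93-KO. As with type IV, the groups were apart in NONT and EXOSC5-KO and overlapped in NUP93-KO, again with no share over all genes counted. COL6A1 fell by 0.98 ± 0.22 in NONT (adjusted p = 0.000691), the smallest fall among the genes that passed there, and COL6A2 fell by 1.46 ± 0.28 (adjusted p = 0.000152). Neither passed in EXOSC5-KO (−0.36 ± 0.22, adjusted p = 0.165, and −0.55 ± 0.28, adjusted p = 0.0941) or in NUP93-KO, where the 95% intervals were −0.49 to 0.46 and −0.58 to 0.61.

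The EXOSC5-KO count depended on single libraries. Leaving out the first untreated EXOSC5-KO library gave 1 gene lower (50.3% of all genes), leaving out its first treated library gave 2 (52.7%) and leaving out the second gave 3 (53.2%). Leaving out either treated NONT library, which changes the shared estimate of spread, added COL6A2 for 6 (65.3% and 65.4% of all genes). Without a mean-variance trend, or with no filter on low values, 3 genes passed (61.1% and 45.7% of genes), and scaling the libraries to the same sum of the 13 mitochondrially encoded mRNAs gave 8 (75.1%).

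Whether the collagen genes were lost less than other genes was tested as the mean response over the 3 genotypes after centring each library on its median log2 value, a scale that a miscounted well or a pipetting error of the spike-in does not move. Of the 10 genes 8 were higher on this scale, against 52.8% of all genes higher, and 0 were lower, against 25.5% lower. The genes not called were COL1A2 and COL3A1. On this centre the median over all genes was itself 0.50, so it does not mark the typical gene. On the median-of-ratios scale, added after the data were seen, the median over all genes was −0.02 and the same 8 genes were called higher, against 34.9% of genes higher, and 0 lower, against 37.1%. At an unadjusted p under 0.05 the counts were 8 and 0 on both scales, and COL1A2 also passed on the first without the second treated NONT library or the second untreated EXOSC5-KO library (1.20 each). The median of the 10 was 0.44. COL6A1 stood highest there at 0.76 ± 0.05 (SE, adjusted p = 2.6e-07), then COL4A1 at 0.69 ± 0.09 and COL6A2 at 0.55 ± 0.11. COL5A2 had 0.53 ± 0.11, COL5A1 0.47 ± 0.11, COL4A2 0.41 ± 0.12, COL12A1 0.41 ± 0.06 and COL1A1 0.34 ± 0.05. These averages hide a difference by genotype: by median of ratios 3 of the 10 were called higher in NONT, 4 in EXOSC5-KO and 8 in NUP93-KO. The shares over all genes were 27.2%, 26.2% and 26.7%, and the medians of the 10 were 0.25, 0.27 and 0.93. Libraries scaled to the same total left 2 of the 10 higher, against 21.3% of all genes, and against the mitochondrially encoded mRNAs, which another polymerase makes and triptolide does not target, 0 were higher (0.0652% of all genes) and 8 lower (91.7%), so the direction is relative to the genes used as the scale.

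Ranks among all genes by log2 difference do not depend on how a library is scaled, apart from the pseudocount. In NONT the 8 abundant genes lay above 48.2% (COL12A1) to 80.4% (COL6A1) of all genes. In EXOSC5-KO they lay above 56.6% (COL12A1) to 85.1% (COL6A1). In NUP93-KO they lay above 70.4% (COL1A1) to 96.0% (COL12A1), with COL4A1 above 95.6% and COL5A2 above 95.02%. COL12A1 and COL4A2 (49.7% in NONT, 93.1% in NUP93-KO) moved furthest up the ranking between these genotypes, and COL1A1 (60.7% in NONT) moved least among the 8. These are descriptions within each genotype, with no test.

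A difference in response between genotypes was tested directly, as the interaction of knockout and drug. Both differences use the same 4 NONT libraries. On the spike-in scale 1 of 10 collagen genes passed for NUP93-KO minus NONT, against 0.775% of all genes, with 8 of 10 at an unadjusted p under 0.05, against 41.6% of all genes. That gene was COL12A1, whose response was 1.82 ± 0.33 higher on the log2 scale in NUP93-KO (adjusted p = 0.0273). Between single treated and untreated libraries, 4 pairs per genotype, its difference was −2.27 to −1.06 in NONT and −0.02 to 0.33 in NUP93-KO. COL4A2 had 1.66 ± 0.43 (adjusted p = 0.0586), COL6A2 1.47 ± 0.40 (0.0586), COL5A1 1.38 ± 0.41 (0.0632), COL5A2 1.37 ± 0.37 (0.0591), COL4A1 1.33 ± 0.38 (0.0612), COL6A1 0.96 ± 0.32 (0.0703) and COL1A1 0.92 ± 0.35 (0.0822), all by limma and adjusted over all genes. The median of the 10 was 1.37, beside 0.74 over all genes. COL12A1 did not pass without the second untreated NONT library (1.42, adjusted p = 0.122), the second treated NONT library (1.62, 0.0630), either untreated NUP93-KO library (1.69, 0.116, and 1.95, 0.0501) or the second treated NUP93-KO library (1.77, 0.0640). Without the first untreated NONT library 8 of 10 genes passed, but so did 51.2% of all genes, and without the first treated one 8 of 10 passed against 18.0%. With an untreated mean of at least 50 as the filter 6 of the 8 genes left passed, against 9.05%. On the median-of-ratios scale COL12A1 had 1.07 (adjusted p = 0.0682), and 0 of 10 passed, against 0.0145% of all genes, with 6 of 10 at an unadjusted p under 0.05, against 9.56%.

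For EXOSC5-KO minus NONT 0 of 10 passed, against 0.333% of all genes, with 2 of 10 at an unadjusted p under 0.05 (COL6A2, 0.91 ± 0.40, and COL12A1, 0.76 ± 0.33), against 23.5% of all genes. The median of the 10 was 0.73, beside 0.57 over all genes. Without the first untreated NONT library 4 of 10 passed (COL1A1, COL4A1, COL6A1 and COL12A1), a share near the 38.5% of all genes, and without the first treated NONT library COL6A2 passed, against 2.97%.

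Without drug, no collagen gene passed in either knockout on the spike-in scale. For NUP93-KO 0 of 10 passed, against 0.0217% of all genes, with 2 of 10 at an unadjusted p under 0.05 (4.20% of genes), and for EXOSC5-KO 0 of 10 passed, against 0.521%, with 0 of 10 at an unadjusted p under 0.05 (8.49%). Both comparisons use the same 2 untreated NONT libraries. COL1A1 had 23577 and 28122 in NUP93-KO and 39198 and 57588 in NONT, a log2 difference of −0.88 ± 0.25 (unadjusted p = 0.0024, adjusted p = 0.538 by limma). COL12A1 had 1659 and 1979 in NUP93-KO and 2257 and 3929 in NONT (−0.72 ± 0.24, adjusted p = 0.786 by limma). For these 2 of 10 genes the libraries of NUP93-KO and NONT did not overlap, and for EXOSC5-KO this held for 0 of 10. The share of all genes with groups apart was not counted, so this is no support for a change. On the median-of-ratios scale, where the standard errors were smaller, both passed in NUP93-KO, and these 2 of 10 stood against 0.427% of all genes lower. COL1A1 was at −0.81 ± 0.09 (adjusted p = 0.00416) and COL12A1 at −0.64 ± 0.10 (adjusted p = 0.0156). In EXOSC5-KO COL1A1 alone passed on that scale (−0.53 ± 0.09, adjusted p = 0.00976), 1 of 10 against 3.64% of all genes lower, while COL12A1 was at 0.06 ± 0.10. COL6A1 had the highest value in NUP93-KO, 0.38 ± 0.09 (adjusted p = 0.112). Ranked by log2 difference, COL1A1 lay above 2.61% of all genes in NUP93-KO and above 8.51% in EXOSC5-KO.

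**Figure D4:**
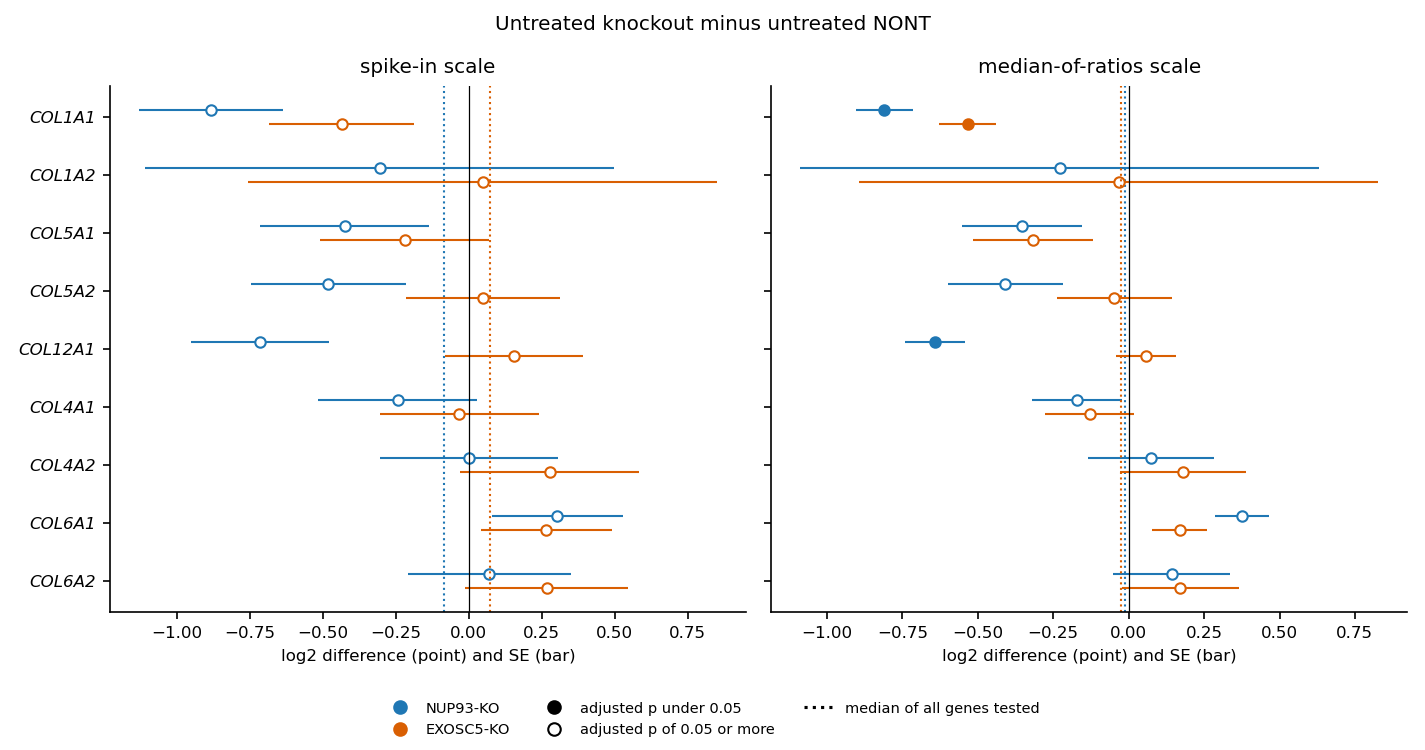
Log2 difference between untreated knockout and untreated NONT libraries (x) with its SE for 9 collagen genes (y), on the spike-in scale (left) and the median-of-ratios scale (right), filled where the adjusted p is under 0.05. COL1A1 is lowest in both knockouts, with −0.88 and −0.44 on the left, and is filled only on the right, with COL12A1 of NUP93-KO.

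Ratios of partner chains within a library do not depend on its scale, and were compared with an exact two-sided permutation test of the treatment labels within genotype (the smallest p it can give is 0.00926), adjusted over the 4 pairs. Per kb and in untreated cells, COL4A2 exceeded COL4A1 by a median of 2.17-fold, COL6A2 exceeded COL6A1 by 1.24-fold and COL5A1 exceeded COL5A2 by 4.24-fold. The log2 ratio of COL4A2 over COL4A1 was 1.07 ± 0.17 (SD, 6 libraries) untreated and 0.79 ± 0.29 treated. It was 0.96 and 0.81 in NONT untreated against 0.60 and 0.30 in NONT triptolide, 1.22 and 1.17 against 0.89 and 0.87 in EXOSC5-KO, and 1.02 and 1.23 against 0.99 and 1.07 in NUP93-KO. It was thus lower after triptolide without overlap in NONT and EXOSC5-KO and overlapped in NUP93-KO, by −0.28 in the mean (exact permutation p = 0.0185, adjusted p = 0.0741), which did not pass. COL6A2 over COL6A1 was lower by −0.21 in the mean (exact permutation p = 0.0741, adjusted p = 0.148), with 0.11 and 0.01 against −0.16 and −0.67 in NONT, 0.10 and 0.02 against −0.20 and −0.05 in EXOSC5-KO, and −0.31 and −0.04 against −0.17 and −0.11 in NUP93-KO. COL5A2 over COL5A1 moved by 0.07 (exact permutation p = 0.704, adjusted p = 0.938) and COL1A2 over COL1A1 by 0.03 (exact permutation p = 0.972). The SD of the last ratio was 0.86 untreated and 0.70 treated.

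**Figure D5:**
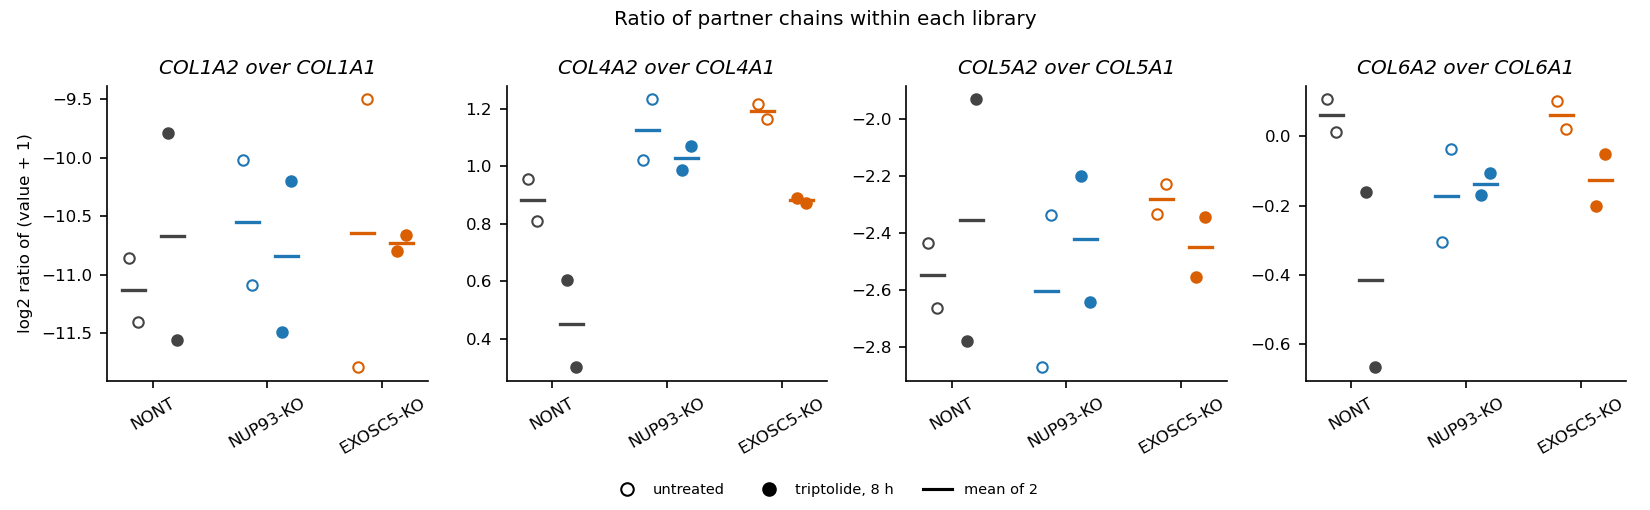
Log2 ratio of partner chains (y, each pair on its own scale, computed from value + 1) in the 12 libraries by genotype (x), open circles untreated, filled circles after triptolide, bars the mean of 2. The COL4A2 over COL4A1 ratio is lower after triptolide in NONT and EXOSC5-KO and overlaps in NUP93-KO, and the COL1A2 over COL1A1 ratio spreads over more than 2 log2 units.

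Genes that work with collagens were taken from fixed lists and counted in the same tests, where 90.0% (NONT), 55.1% (NUP93-KO) and 64.3% (EXOSC5-KO) of all genes were lower. Of 34 other collagen genes 17 passed the filter, and 15, 0 and 3 of them fell. COL6A3, the partner of COL6A1 and COL6A2, had a mean of 6014 untreated and had log2 differences of −1.01 (adjusted p = 0.00103), 0.23 (0.448) and −0.49 (0.0886), again by genotype in that order. The next most abundant, COL16A1 and COL11A1, had −1.47 and −0.97 in NONT and −0.19 and 0.12 in NUP93-KO. Of 21 tested genes for collagen modification and folding 21, 2 and 9 fell. P4HB, a subunit of the prolyl hydroxylase, changed by −1.30, −0.09 and −0.54, PPIB, a prolyl isomerase, by −1.07, −0.04 and −0.44, and HSP90B1, a chaperone, by −1.17, 0.12 and −0.58, in the same order of genotypes.

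Of 14 genes for procollagen processing and cross-linking 13, 1 and 6 fell, in that order of genotypes. The cross-linking enzymes TGM2, PXDN and LOXL4 had −0.69, −1.04 and −1.46 in NONT and 0.03, 0.03 and −0.39 in NUP93-KO. Of 15 basement membrane partners 13, 1 and 6 fell, with AGRN at −1.30, LAMC1, a laminin chain, at −1.47 and HSPG2 (perlecan) at −1.22 in NONT and −0.03, −0.20 and −0.0043 in NUP93-KO. Of 10 interstitial matrix partners 10, 3 and 6 fell. Among them FN1 (fibronectin) had −1.69 in NONT and −0.20 in NUP93-KO, SPARC −0.98 and −0.06, and THBS1 (thrombospondin) −2.19 and −1.11 (adjusted p = 0.000162). Of 9 collagen receptors 8, 1 and 4 fell, with ITGB1 at −1.08 in NONT and 0.11 in NUP93-KO, MRC2 at −1.39 and −0.10 and ITGA2, the collagen-binding integrin chain, at −0.91 and 0.47. ITGA2 was also the receptor gene called higher in untreated EXOSC5-KO (0.95, adjusted p = 0.0438) and in the NUP93-KO interaction (1.39, adjusted p = 0.0434). Of 13 genes for collagen degradation 12, 1 and 5 fell, with TIMP1 at −1.01 in NONT and 0.02 in NUP93-KO, TIMP2 at −0.94 and 0.06 and MMP14 at −1.31 and −0.05. The list medians in NUP93-KO were −0.34 to −0.03, beside −0.92 over all genes, and on the median-of-ratios scale the medians over the 3 genotypes were 0.43 to 0.57, beside −0.02.

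Genes with a profile most like a collagen gene were found by Pearson correlation of median-centred log2 values over the 12 libraries, among about 10375 genes with an untreated mean of at least 100. These are descriptions over libraries that share treatment groups. COL1A1 was closest to TNNT2 (r = 0.986), TAGLN (0.981) and AQP1 (0.976). COL4A1 was closest to NFE2L1 (0.991), PDIA4 (0.989) and HSP90B1 (0.988), and COL12A1 to CNTNAP1 (0.962), SPTBN1 (0.958) and NFASC (0.950). The mean of COL4A1 and COL4A2 was closest to OS9 (0.992), MRC2 (0.990) and LRPAP1 (0.990), that of COL5A1 and COL5A2 to CCDC80 (0.982), EPB41L2 (0.982) and BCAM (0.980), and that of COL6A1 and COL6A2 to ITM2C (0.995), AEBP1 (0.994) and LAMP1 (0.993). The mean of COL1A1 and COL1A2 was closest to UBE2D2 (0.914), PACRGL (0.892) and ARHGEF40 (0.890). COL1A2 entered that mean with equal weight, at about 5.90 to 41.1 reads. Its untreated mean of 21.1 is under the 100 required of the genes compared. How far its spread sets these matches was not tested. Partner chains were not each other's closest genes: COL6A1 ranked 89 of 10375 for COL6A2 and COL6A2 ranked 627 for COL6A1 (r = 0.952). COL4A1 ranked 130 for COL4A2 but COL4A2 ranked 2403 for COL4A1 (r = 0.911), and COL5A1 ranked 1699 for COL5A2 and COL5A2 1205 for COL5A1 (r = 0.890).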

How the data were processed

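Per the study's methods, the authors extracted RNA from counted cells after adding ERCC spike-in RNA at a fixed volume per cell, prepared strand-specific poly(A) libraries, assigned reads by strand with kallisto 0.46.1 on GRCh38, summarised them per gene with tximport and divided by DESeq2 size factors estimated on the 92 ERCC rows. What the authors deposited is thus a signal per gene on a spike-in scale, not counts. Between 11.9% and 23.8% of low values were whole multiples of the worth of 1 read, so the reads behind the values could not be recovered and no test for counts was run. Depth was estimated from the most frequent value above 0, and intervals and floors from it cover counting error only.

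Groups came from the sample labels. Symbols and lengths came from GENCODE release 44 (19584 of 22379 IDs matched), and promoters from RefSeq. Genes with an untreated mean of at least 10 were analysed as log2(value + 1) with limma 3.58.1 in R 4.3.3 (lmFit, eBayes with trend, 6 group means, 12 libraries, two-sided, Benjamini-Hochberg over genes, threshold 0.05). The fit was tested on simulated data, and chain ratios were tested by exact permutation with SciPy 1.17.1. Python 3.11.15, NumPy 2.4.6, pandas 2.3.3 and matplotlib 3.10.9 made summaries and figures. Alternatives were a pseudocount of 10, other filters, no trend, 3 other scales, each library left out and a replicate block.

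The collagen genes and the gene lists were chosen with earlier results of these data known. Named genes were all 10 collagen genes, the 3 most abundant genes of each other list in untreated cells, the 3 genes most correlated with each chain pair and with COL1A1, COL4A1 and COL12A1, the targeted genes and the cell type markers. A marker of the osteoblast list, and the sum over that list, are not reported here. COL6A2, COL12A1 and ITGA2 are also named where a count was 5 or fewer.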

Additional observations from a re-analysis of the deposited data

Results flagged for a closer look

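The response of COL12A1 to triptolide differed between genotypes: it was 1.82 higher on the log2 scale in NUP93-KO than in NONT (SE 0.33, adjusted p = 0.0273, limma interaction test over 13811 genes). COL12A1 went from 2257 and 3929 to 1079 and 814 in NONT and from 1659 and 1979 to 1948 and 2087 in NUP93-KO. Without drug the log2 difference between NUP93-KO and NONT was −0.72 (adjusted p = 0.786). Over all genes the median difference in response was 0.74 on the spike-in scale. The call for COL12A1 was lost when single libraries of several groups were left out, with differences in response of 1.42 to 1.95. On the median-of-ratios scale the difference in response was 1.07 (adjusted p = 0.0682), beside a median over all genes of 0.0044.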

How the results depend on the processing

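Scale had the widest effect. With libraries scaled to the same total, 1 collagen gene was lower in NONT, where 5270 of 13811 genes were lower, and 0 in EXOSC5-KO (5078 genes). In untreated cells 2 changed in NUP93-KO (49 genes lower and 85 higher) and 1 in EXOSC5-KO (289 lower and 385 higher). In response 0 differed in NUP93-KO (0 genes lower and 2 higher). Averaged over the 3 genotypes, 2 were higher (21.3% of all genes), where the median over all genes was −0.32. By median of ratios these counts were 0, 0, 2, 1 and 0 for the first 5, and 8 were higher averaged over the 3 genotypes (34.9% of all genes). By genotype, 3 were called higher in NONT (27.2% of all genes), 4 in EXOSC5-KO (26.2%) and 8 in NUP93-KO (26.7%). With the same mitochondrial sum, 1 gene was lower in NUP93-KO (10568 of 13811 genes) and 8 in EXOSC5-KO (75.1%). In untreated EXOSC5-KO 1 changed (719 genes lower and 76 higher), and 0 differed in response in NUP93-KO (1 lower and 1 higher). Averaged over the 3 genotypes, 0 were higher and 8 lower (0.0652% and 91.7% of all genes). The median over all genes was −1.21 there, and the 8 values given below lie above it. Among values past the threshold on either scale, the sign turned in NONT by median of ratios for COL1A1 (0.30), COL4A1 (0.45), COL4A2 (0.025), COL5A1 (0.19), COL5A2 (0.38), COL6A1 (0.67) and COL6A2 (0.19), and with the same total COL4A1 (0.14), COL5A2 (0.065) and COL6A1 (0.36). In EXOSC5-KO by median of ratios they were COL1A1 (0.27), COL4A1 (0.58), COL4A2 (0.27), COL5A1 (0.39), COL5A2 (0.22), COL6A1 (0.72), COL6A2 (0.53) and COL12A1 (0.18), and with the same total COL5A1 (0.10) and COL6A1 (0.43). In NUP93-KO they were COL1A1 (0.47), COL5A1 (0.82) and COL6A1 (0.88) by median of ratios and COL6A1 (0.55) with the same total. On the relative scale against the mitochondrial sum, COL1A1 was at −0.88, COL4A1 −0.53, COL4A2 −0.81, COL5A1 −0.76, COL5A2 −0.69, COL6A1 −0.47, COL6A2 −0.68 and COL12A1 −0.82. These reversals follow from the scales themselves. An untreated mean of at least 50 gave 6 genes with a different response in NUP93-KO (9.05% of all genes). No filter gave 0, beside 0 lower and 4 higher of 19002 genes, and no trend gave 0, beside 0 lower and 0 higher of 13811. In EXOSC5-KO no filter and no trend each gave 3 lower (45.7% and 61.1% of genes). With each library left out in turn, 1 library remained in its group. The count lower in EXOSC5-KO and the counts with a different response in either knockout then moved with single libraries. The other counts stayed the same or nearly so. The ratio of COL4A2 over COL4A1 moved between −0.33 and −0.23 and that of COL6A2 over COL6A1 between −0.29 and −0.13, and both passed without the first untreated NUP93-KO library (−0.31 and −0.25). COL5A2 over COL5A1 lay between −0.07 and 0.21 and COL1A2 over COL1A1 between −0.35 and 0.41. Replicate numbers did not pair the samples (correlations of −0.05 to 0.04 across 13811 genes between groups). A replicate block gave 8, 0 and 4 genes lower in NONT, NUP93-KO and EXOSC5-KO, beside 12403, 7429 and 8670 of all genes. It lost COL5A1 in EXOSC5-KO (−0.69, adjusted p = 0.0507 by limma) and gave 1 with a different response in NUP93-KO (2 of all genes lower and 41 higher). Of 1575 values of single genes under the alternatives, 39 lost and 53 gained the threshold in the same direction and 89 changed sign while past it under neither setting, 11 of them by median of ratios (COL1A2 in all 3 genotypes among them). The cause of the changes not set by scale was not tested.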
